A study of Homo sapiens with 50 samples.

Results

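The genes described here are those of the human histone clusters, taken as all array features other than controls whose gene name begins with HIST1H, HIST2H, HIST3H or HIST4H. There were 81 such features for 69 gene names, of 34127 features on the array: 6 for the linker histone H1, 19 for H2A, 23 for H2B, 14 for H3 and 19 for H4. They were measured on 50 arrays, 5 in each of 10 groups, in the human lung carcinoma line H1299 and in H1299shRAD9, which is H1299 stably transfected with a vector (pSUPER.retro.puro) that expresses a short hairpin RNA against RAD9 and selected in puromycin. In each line, RNA was taken 4 h after α particles (1 Gy, LET 125 keV/µm) or without irradiation. The 5 groups of a line were unirradiated controls (CTL), bystander cells of dishes in which the bystander cells formed micronuclei (BP), the directly irradiated cells of such dishes (DBP), bystander cells of dishes in which they did not (BN), and the directly irradiated cells of those dishes (DBN). Directly irradiated cells grew on the thin Mylar surface and bystander cells on the thick surface of the same concentric dish. The comparisons asked how reduced RAD9, irradiation and the bystander position went with gene expression. As limits of the model, 2 stable transfectants were used interchangeably and the labels do not say which of them gave a sample. H1299 was untransfected, so the hairpin, the vector and the selection cannot be told apart between the lines. Samples were assigned to P or N by their micronuclei. P-values measure the spread between the 5 samples of a group, or in paired comparisons that between the 5 pair differences. The labels do not tie these samples to separate cultures.

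Replication-dependent histone genes are transcribed mainly in S phase, when new DNA has to be packed. The core histones H2A, H2B, H3 and H4 form the nucleosome, and H1 binds the DNA that links nucleosomes. The mRNAs of these genes are unusual in that most end in a conserved stem-loop bound by SLBP in place of a poly(A) tail. Most H4 genes are copies that encode the same protein. Such copies differ mostly in synonymous bases and in their untranslated ends, so the identity of a histone signal can rest on few bases of a probe.

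How few is seen in 5 of the 60-base H4 probes, which share a window of 26 bases. In this window 22 bases are the same in all 5 probes and 4 differ, shown in capitals, and 4 of these probes belong to features that were up regulated after irradiation as described below.
HIST1H4F (A_23_P359540): gtTCtTaaggtgttcctggagaaTgt
HIST1H4H (A_23_P323685): gtTCtGaaggtgttcctggagaaCgt
HIST1H4I (A_24_P20873): gtGTtGaaggtgttcctggagaaCgt
HIST1H4K (A_33_P3299865): gtGCtGaaggtgttcctggagaaCgt
HIST2H4B (A_23_P436281): gtGCtGaaggtgttcctggagaaTgt

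The probes of HIST1H4J and of the other HIST1H4K feature overlap in 41 bases of which 40 are equal. A stretch of 30 of them holds the 1 base that differs, in capitals.
HIST1H4J (A_23_P30805): ggtggttgagcgtccctttctatcaaTaaa
HIST1H4K (A_23_P30813): ggtggttgagcgtccctttctatcaaCaaa
Among the tested features, 11 pairs of probes overlapped with at least 85% identity and 25 equal bases; all were H4 probes, and 10 pairs joined different genes. Signals of these H4 genes may therefore share RNA and are not independent of each other.

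A few probes reach the stem-loop at the end of the message. The stem-loop consensus was found in 7 of the 34127 probes, 6 of them probes of histone cluster features, of which 3 were tested. The 3 tested probes are shown by 30 bases each with the stem-loop in capitals.
HIST1H2BF (A_33_P3229122): acccaatcccaaaGGCTCTTTTAAGAGCCa
HIST2H3A (A_33_P3257678): cgtatccaaaaGGCTCTTTTCAGAGCCacc
HIST1H4K (A_23_P30813): ctatcaacaaaaGGCCCTTTTTAGGGCCcc

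Levels are given as log2 of the processed intensity minus the median of the array, so that 1 unit is a 2-fold change within a feature. Levels of different probes are not a comparison of their genes. Of the 81 features, 72 (88.9%) were above background, beside 58.9% of all features, and 38 of these, for 32 genes, also varied enough to be tested (52.8%, beside 60.7% of all features above background). A tested feature had to lie at least 1.3-fold from its median on at least 20% of the arrays. By class, 4 H1, 9 H2A, 3 H2B, 4 H3 and 18 H4 features were tested. All 18 H4 features above background varied this much, as did 3 of the 17 H2B features. The feature with the highest mean level in its class was HIST1H1C for H1 (8.14 ± 0.28, SD over 50 arrays), HIST1H2AJ for H2A (8.51 ± 0.23), HIST1H2BK (A_23_P145238) for H2B (8.64 ± 0.26), HIST3H3 for H3 (10.38 ± 0.24) and HIST1H4C for H4 (11.33 ± 0.36). This orders probe intensities and does not rank the genes by expression.

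RAD9A, the target of the hairpin, was measured by 1 feature. Its level was 3.85, 3.71, 3.70, 3.34 and 3.64 on the H1299shRAD9 CTL arrays and 4.00, 4.00, 4.18, 3.82 and 4.05 on the H1299 CTL arrays, so that 1 H1299shRAD9 array lay within the H1299 range. The mean of H1299shRAD9 CTL was 77.9% of that of H1299 CTL (exact permutation test, 2-sided, p = 0.0159, where 0.00794 is the smallest possible). In DBP, BP, DBN and BN the mean was 3.79, 3.68, 3.80 and 3.69 in H1299shRAD9 and 4.13, 3.80, 3.75 and 3.80 in H1299. In DBN it was therefore not lower in H1299shRAD9. These differences were not tested. Between 55.1% and 83.5% of the features of an array were well above background, the highest on H1299 DBN replicate 1, and 1 to 201 features were saturated, the highest on H1299 DBN replicate 2. The epithelial keratin features of KRT8 and KRT18 and the vimentin feature, VIM, were above background on 50 of 50 arrays. Of other cell types, HBB and PECAM1 features were above background on 0 to 2 arrays, COL1A1 on 8, and PTPRC on 0, 0, 1, 50 and 50 arrays by feature. In bulk RNA, fewer cells of a kind, such as cells in S phase, and less RNA per cell cannot be told apart.

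In unirradiated cells, 2 of the 38 tested histone features were differentially expressed between H1299shRAD9 and H1299, both up regulated, beside 7.82% of all 12206 tested features up regulated and 7.68% down regulated, 15.5% in all (p under 0.005 and false discovery rate under 10%, limma). These were HIST4H4, the single H4 gene outside the other clusters (chromosome 12, 14924006 to 14924065 in hg19, the build of all probe positions), and HIST1H2APS1, named as an H2A pseudogene (chromosome 6, 25732995 to 25733054). Over all 38 features, 12 were higher in H1299shRAD9, these included, beside 57.1% of all tested features. The median difference of the 38 was −0.22 where that of all features was 0.10. The histone median was −0.10 without replicate 5 and −0.13 without replicate 2.

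The level of HIST1H2APS1 was −0.90, −0.87, −0.90, −1.06 and −1.07 in H1299shRAD9 CTL and −1.74, −1.84, −1.65, −1.36 and −1.93 in H1299 CTL. All H1299shRAD9 arrays were above all H1299 arrays, as in 8.68% of all features. The difference was 0.74 (SE 0.14), or 1.67-fold (adjusted p = 0.00614).

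The level of HIST4H4 was −0.19, −0.05, −0.11, −0.59 and −0.37 in H1299shRAD9 CTL and −1.35, −0.66, −1.68, −0.82 and −0.56 in H1299 CTL, and the groups overlapped by the lowest array of the first and the highest of the second. The difference was 0.75 (SE 0.22, adjusted p = 0.0301). In irradiated and bystander cells, whose arrays that choice did not use, HIST4H4 was again at a higher level in H1299shRAD9, by 0.69 (DBP), 0.68 (BP), 1.20 (DBN) and 0.57 (BN) (exact permutation test, p = 0.0714, 0.0397, 0.0317 and 0.0635, each 0.114 after adjustment over 8 tests). None of these passed the adjustment. For HIST1H2APS1 the same differences were 0.17, 0.29, 0.04 and 0.31 (adjusted p = 0.526, 0.114, 0.841 and 0.223).

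The lowest differences between the unirradiated lines were in HIST1H4K (A_23_P30813), at −1.24 (SE 0.37, adjusted p = 0.0324, with its p just above 0.005), in HIST1H4J, at −0.94 (SE 0.38, adjusted p = 0.0854), and in HIST1H1B, at −0.89 (SE 0.31, adjusted p = 0.053). The other feature of HIST1H4K gave −0.42 (SE 0.25, adjusted p = 0.229). HIST2H3A, an H3 gene of the chromosome 1 cluster, had the third highest difference, 0.44 (SE 0.21, adjusted p = 0.141). The spread of these features was unequal between the lines. HIST1H4K (A_23_P30813) lay at 4.78, 4.54, 5.57, 4.91 and 5.41 in H1299shRAD9 CTL, and at 5.23, 6.70, 5.93, 5.96 and 7.60 in H1299 CTL, where replicates 2 and 5 were high. The mean of the 38 features on these 2 arrays was 5.05 and 5.23, where the other H1299 CTL arrays had 4.15 to 4.61 and the H1299shRAD9 CTL arrays 4.38 to 4.63. The 10 arrays of this comparison were on 8 slides, none of which held both lines, so that slide and line cannot be told apart. Which features were called, and so the direction of the calls, depended on scaling. With normexp background correction 5 of 54 were called, all lower in H1299shRAD9 (HIST1H1B, HIST1H2AD, HIST1H2BK, HIST1H4K and HIST2H2BF), beside 1785 of 12695 over all features. With quantile normalization 2 of 48 were called higher and 2 lower (HIST1H2BL and HIST1H4K), beside 1786 of 10809. HIST1H4K and HIST1H1B were lower in the fit above too, and HIST1H2AD, HIST1H2BK, HIST1H2BL and HIST2H2BF were not tested there. HIST4H4 depended on processing: it passed the threshold in 4 of 14 alternatives (difference 0.50 to 0.89), and HIST1H2APS1 in 13 of the 13 in which it was tested (0.68 to 0.86).

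**Figure D1:**
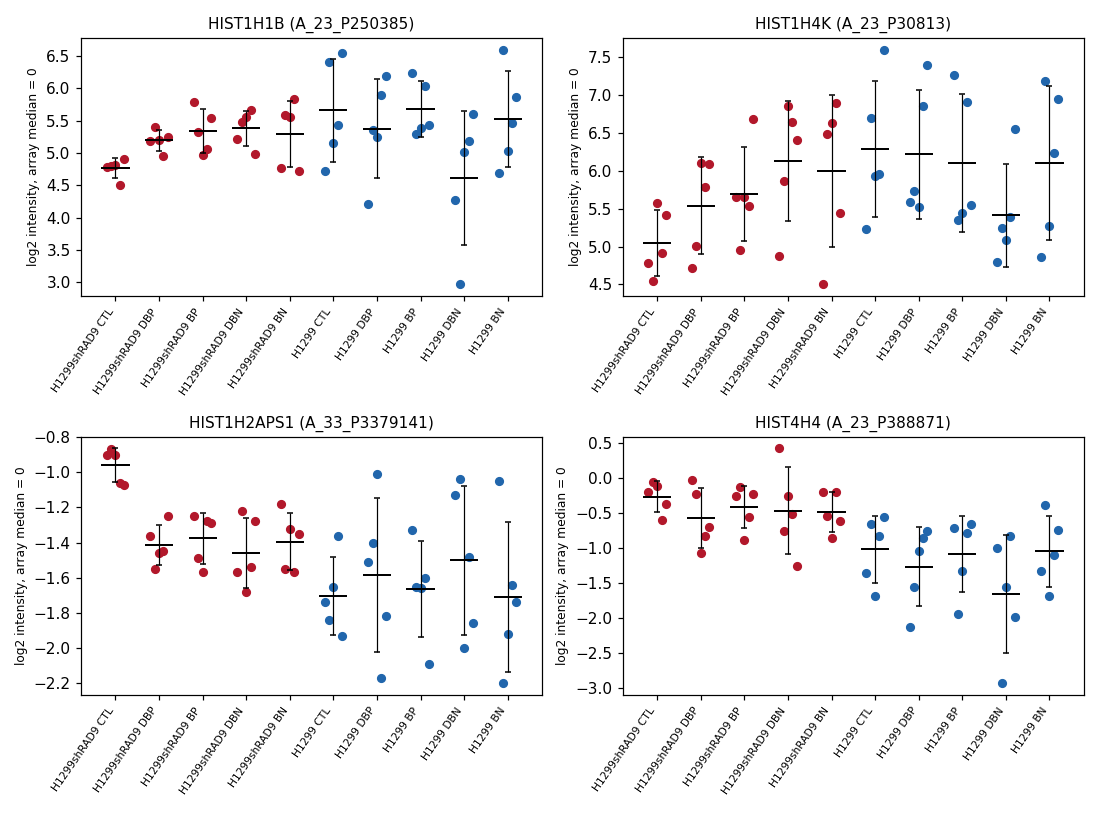
Level on every array of HIST1H1B, HIST1H4K (A_23_P30813), HIST1H2APS1 and HIST4H4, as log2 of the processed intensity minus the array median (vertical axes), in the 5 groups of H1299shRAD9 and of H1299 (horizontal axes); points are arrays and bars the mean ± SD, n = 5. HIST1H2APS1 was highest in H1299shRAD9 CTL, at −1.07 to −0.87, and HIST1H1B was at 4.50 to 4.91 there and at 4.95 or more in DBP, BP and DBN of that line.

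In H1299shRAD9, directly irradiated cells of the dishes with responding bystanders (DBP) had 2 of the 38 features up regulated and 0 down regulated, beside 1.02% of all features up and 0.762% down regulated, 1.78% in all (p under 0.006 and false discovery rate under 10%, limma with a block for replicate number). Both were linker histones. In the bystander cells themselves (BP) 1 of these 2, HIST1H1B, was up regulated and 0 were down regulated, beside 2.17% and 0.164% of all features, 2.33% in all. Nearly all H4 features were higher in both groups without passing the test, 17 of 18 in DBP and 16 of 18 in BP, beside 53.5% and 50.7% of all features. All 8 comparisons of irradiated or bystander groups with CTL share the CTL arrays of their line, so their values are given side by side and their likeness is no result. The comparison of the CTL groups and the later tests of whether the lines differed in their change use these arrays too. A high or low CTL level enters all of them. Opposite directions between lines and after irradiation, as in HIST1H2APS1 and HIST1H4K (A_23_P30813), are therefore not separate results.

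HIST1H1B encodes H1.5 (the probe lies on chromosome 6 at 27834629 to 27834688). Its level was 4.78, 4.80, 4.82, 4.50 and 4.91 in H1299shRAD9 CTL, 5.18, 5.40, 5.20, 4.95 and 5.25 in DBP, and 5.79, 5.32, 4.97, 5.06 and 5.54 in BP. Every array of DBP and of BP was above every CTL array, as in 0.967% and 1.15% of all features. The rise was 0.43 in DBP (SE 0.09, 1.35-fold, adjusted p = 0.0958) and 0.57 in BP (SE 0.13, 1.49-fold, adjusted p = 0.0973), both near the 10% limit.

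HIST1H1E encodes H1.4 (chromosome 6, 26156928 to 26156987). Its level was 5.40, 5.37, 5.78, 5.54 and 6.06 in CTL and 5.79, 5.86, 6.26, 6.02 and 6.38 in DBP, higher in 5 of 5 pairs although the groups overlapped. The rise in DBP was 0.43 (SE 0.09, adjusted p = 0.0958), and the difference in BP was 0.40 (SE 0.10, adjusted p = 0.136). The other tested linker histones, HIST1H1C and HIST1H1D, had differences of 0.13 and 0.09 in DBP and of 0.08 and 0.17 in BP.

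Over the 38 features, 29 were higher in DBP, beside 53.5% of all features (median difference 0.16, all features 0.02), and 30 in BP, beside 50.7% (median 0.18, all features 0.00). In DBP the median was 0.08 with scaling to the 75th percentile, quantile normalization or the authors' processed values. The 34 histone features above background that had varied too little to be tested had medians of 0.00 in DBP (16 of 34 higher) and 0.03 in BP (18 of 34), in a fit without the criterion on variation. In DBP 13 of 38 were higher in 5 of 5 pairs, beside 8.11% of all features, and in BP 8 of 38, beside 8.98%. The highest difference was that of HIST1H4K (A_23_P30813) in both, 0.50 in DBP (SE 0.14, adjusted p = 0.161) and 0.65 in BP (SE 0.17, adjusted p = 0.129), with 0.22 and 0.27 at its other feature. HIST1H4G had 0.43 in DBP and 0.53 in BP (adjusted p = 0.155 and 0.143). At the low end of DBP stood HIST1H2APS1 with −0.46 (adjusted p = 0.114), HIST4H4 with −0.30 (adjusted p = 0.406) and HIST1H2AC (A_23_P167983) with −0.22 (adjusted p = 0.346). In BP these were HIST1H2APS1 with −0.42 (adjusted p = 0.15), HIST1H2AC (A_23_P372860) with −0.27 (adjusted p = 0.307) and HIST2H2AA4 with −0.26 (adjusted p = 0.554).

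These calls were lost without the pairing and in most fits with a replicate left out, as were most calls over the array. Without the replicate block 0 histone features were differentially expressed in DBP and 0 in BP, beside 14 and 0 of all 12206 features (217 and 285 with the block). Leaving out replicate 2, 3, 4 or 5 gave 0 histone features in DBP, beside 0, 0, 7 and 15 of all features. The histone median there stayed at 0.13 to 0.17. Leaving out replicate 1, 2, 4 or 5 gave 0 histone features in BP, beside 0 of all features each time. Within the slides that held both groups, HIST1H1B was higher by 0.29 and 0.34 in DBP and by 0.40 and 0.63 in BP, and HIST1H1E by 0.36 and 0.32 in DBP.

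Directly irradiated H1299shRAD9 cells of the dishes whose bystanders did not respond (DBN) had the most histone features differentially expressed: 9 of 38 were up regulated and 1 was down regulated, beside 3.42% of all features called higher and 1.36% called lower (4.78% in either direction). The 9 were 7 features of 6 H4 genes (HIST1H4F, HIST1H4G, HIST1H4I, HIST1H4J, HIST1H4K with 2 features, and HIST2H4B) and the linker histones HIST1H1B and HIST1H1E. The feature that fell was HIST1H2APS1. None of the 3 H2B and 4 H3 features passed the test. Of all 38 features 32 were higher, beside 45.9% of all features on the array that were tested, with a median difference of 0.28 where that of all features was −0.02.

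HIST1H4K and HIST1H4J, whose probes are shown above (chromosome 6, 27798954 to 27799013 and 27792176 to 27792235), had the largest rises apart from that of HIST1H4G. HIST1H4K (A_23_P30813) was at 4.78, 4.54, 5.57, 4.91 and 5.41 in CTL and at 4.88, 5.86, 6.85, 6.64 and 6.40 in DBN. Replicates 2 to 5 of DBN were above all CTL arrays, and replicate 1 was within the CTL range though above its own pair. The rise was 1.09 (SE 0.21, 2.12-fold, adjusted p = 0.0587).

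HIST1H4J was at 4.47, 4.51, 5.55, 4.85 and 5.49 in CTL and at 4.70, 5.80, 6.61, 6.23 and 6.01 in DBN, again with replicate 1 alone within the CTL range. It rose by 0.90 (SE 0.18, 1.86-fold, adjusted p = 0.062). The other HIST1H4K feature, with a different stretch of the message, was at 6.42, 6.53, 7.01, 6.52 and 6.76 in CTL and at 6.98, 6.89, 7.41, 7.43 and 6.99 in DBN, a rise of 0.50 (SE 0.12, adjusted p = 0.0939). Both features of this gene rose; the sizes were not tested against each other.

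HIST1H4G was near the limit of detection: it was well above background on 1 of 5 CTL arrays and 4 of 5 DBN arrays. Its level was −1.32, −1.88, −1.20, −1.39 and −0.82 in CTL and −1.39, −0.98, 0.51, 0.15 and −0.13 in DBN, higher in 4 of 5 pairs. The difference was 0.95 (SE 0.24, adjusted p = 0.0989).

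HIST1H4F was at 3.22, 3.24, 3.56, 3.13 and 3.53 in CTL and at 3.37, 3.84, 4.57, 4.36 and 4.09 in DBN, with replicate 1 again the lowest, and rose by 0.71 (SE 0.16, adjusted p = 0.0749). HIST2H4B, of the chromosome 1 cluster, was at 4.86, 4.92, 5.21, 4.76 and 5.20 in CTL and at 5.36, 5.22, 5.78, 5.74 and 5.46 in DBN, and rose by 0.52 (SE 0.13, adjusted p = 0.0921). HIST1H4I was at 4.49, 4.62, 4.86, 4.41 and 4.91 in CTL and at 5.04, 4.92, 5.43, 5.40 and 5.11 in DBN, and rose by 0.52 (SE 0.13, adjusted p = 0.0989). In HIST2H4B and HIST1H4I every DBN array was above every CTL array, as in 1.96% of all features.

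Of the linker histones, HIST1H1B was at 5.22, 5.48, 5.55, 5.67 and 4.99 in DBN and so above all CTL arrays, and rose by 0.62 (SE 0.16, adjusted p = 0.0982). HIST1H1E was at 5.74, 5.98, 6.49, 6.61 and 6.38 in DBN and rose by 0.61 (SE 0.13, adjusted p = 0.0709), with overlap between the groups. HIST1H1D and HIST1H1C differed by 0.22 and 0.10 (adjusted p = 0.337 and 0.731). The median difference of the 4 linker histones was 0.41.

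HIST1H2APS1 was at −1.57, −1.22, −1.68, −1.54 and −1.28 in DBN, below all CTL arrays as in 1.11% of all features, and fell by 0.50 on the log2 scale (SE 0.12, 0.708-fold, adjusted p = 0.0799). Its DBN mean in H1299shRAD9, −1.46, was close to that in H1299 DBN, −1.50. The feature was well above background on 4 of 5 DBN arrays. HIST1H2AC (A_23_P167983) and HIST2H2AA4 had the next lowest differences, −0.32 and −0.24 (adjusted p = 0.304 and 0.439), and the other HIST1H2AC features gave 0.03 and 0.22.

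By class, the median difference in DBN was 0.41 for H1, 0.36 for H4 (16 of 18 higher), 0.14 for H2A, 0.13 for H2B and 0.08 for H3. HIST1H4C, the H4 feature with the highest level, was at 11.32 ± 0.17 in CTL and 11.52 ± 0.24 in DBN (SD, n = 5). The 34 untested features had a median difference of 0.00 in DBN, with 18 of 34 higher.

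**Figure D2:**
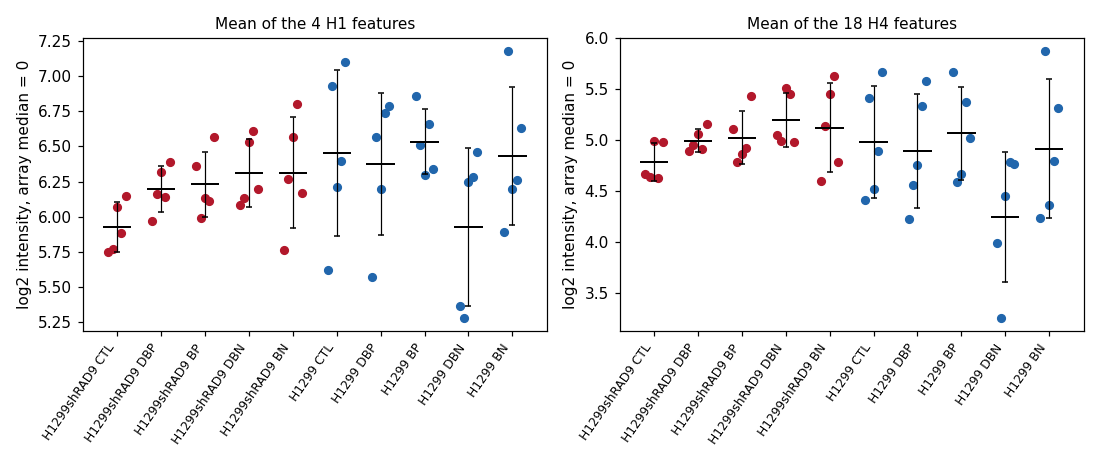
Mean level of the 4 tested H1 features and of the 18 tested H4 features on each array (log2 of the processed intensity minus the array median, vertical axes), in the 10 groups (horizontal axes); points are arrays and bars the mean ± SD, n = 5. In H1299shRAD9 DBN and BN, replicates 3 and 4 had the highest H4 means (5.45 to 5.63), and in H1299 DBN replicates 1 and 2 had the lowest (3.99 and 3.26).

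The rise in DBN was unequal between replicates. The mean of the 38 features was 4.70, 4.63, 4.97, 4.95 and 4.53 in DBN and 4.38 to 4.63 in CTL. Replicates 3 and 4, the highest, were both hybridized on a slide that also held BN replicates 3 and 4 (4.90 and 5.16) and no CTL array; the part of the slide was not tested. On the 1 slide with both groups, DBN replicate 1 was above the mean of 2 CTL arrays by 0.14 to 0.51 in the 9 features that rose, and the difference was −0.69 in HIST1H2APS1. With a block for slide, which leaves this 1 slide to compare the groups, 0 of the 38 features were differentially expressed: HIST1H4K (A_23_P30813) and HIST1H4J differed by 0.22 each, HIST1H4F by 0.14, HIST1H4G by 0.21 and the other HIST1H4K feature by 0.51, with a median over the 38 of 0.38 (33 higher). With no block for replicate the differences and the median, 0.28, were the same and 0 passed, beside 108 of all features (583 with the block). Leaving out replicate 2, 3 or 4 also gave 0, beside 49, 25 and 22 of all features, with histone medians of 0.28, 0.25 and 0.19.

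In the matching bystander cells (BN), 0 of 38 histone features were differentially expressed and 6 had an unadjusted p under 0.05, beside 0.0492% of all features called and 14.3% at that unadjusted p. In BN 30 of 38 features were higher, beside 48.7% of all features, with a median of 0.21 (all features −0.01). The direction was not kept in every setting: with a block for slide 7 of 38 were higher and the median was −0.08, and without replicate 4 the median was 0.07. HIST1H4K (A_23_P30813) was at 4.50, 6.49, 6.63, 6.90 and 5.44 in BN, high in replicates 2, 3 and 4 and within or just below the CTL range in replicates 1 and 5. Its difference was 0.95 (SE 0.36, adjusted p = 0.29), with 0.38 (SE 0.18) at its other feature.

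HIST1H4G (0.86, SE 0.38, adjusted p = 0.371) and HIST1H4J (0.73, SE 0.26, adjusted p = 0.278) followed, and HIST1H1E had 0.66 (SE 0.20, adjusted p = 0.224), the highest of the linker histones. HIST1H2APS1 was again the lowest, at −0.43 (SE 0.10, adjusted p = 0.157), followed by HIST2H2AA4 at −0.22 and HIST1H4A (A_23_P431179) at −0.22, while the other HIST1H4A feature was at 0.28. HIST1H2APS1 was below every CTL array in DBP, BP and BN too, as in 0.795%, 0.246% and 0.377% of all features. With all groups of the line in one fit, HIST1H2APS1 and HIST1H1E passed the test in BN (adjusted p = 0.0318 and 0.0446). These were 2 of 38 histone features, beside 555 of all 12206 features called in that fit.

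Compared directly, no histone feature passed the test between the irradiated and bystander cells of H1299shRAD9. In DBP against BP 0 of 38 passed, beside 0.0983% of all features, and in DBN against BN 0 of 38, beside 0.131%; 0 had an unadjusted p under 0.05 in either, beside 4.61% and 2.58% of all features. The median differences were −0.05 and 0.05. HIST1H1B differed by −0.14 (SE 0.14) between DBP and BP and by 0.09 (SE 0.13) between DBN and BN, and HIST1H4K (A_23_P30813) by −0.15 (SE 0.20) and 0.14 (SE 0.21). DBN against DBP, compared without pairing, gave 0 of 38 (and 0 of all features, 0%), with a median of 0.15 and the highest value, 0.59 (SE 0.38), in HIST1H4K.

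**Figure D3:**
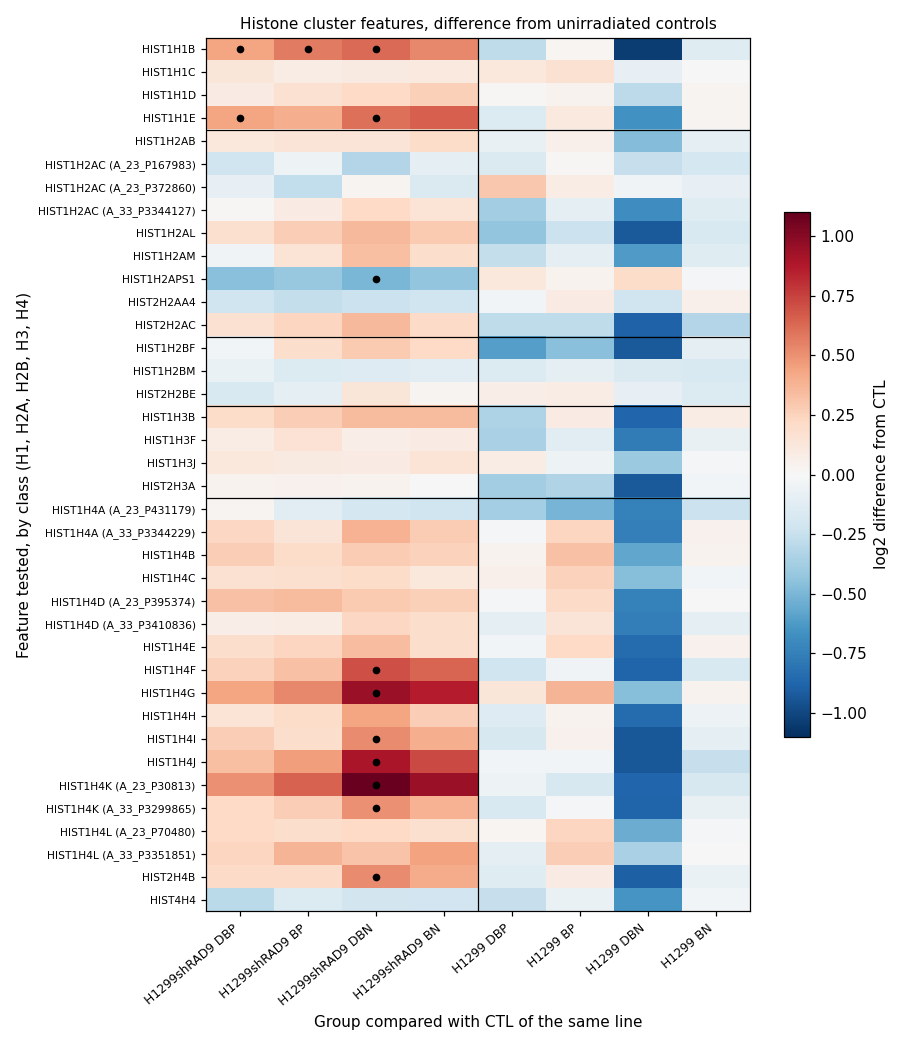
Differences from CTL on the log2 scale (colour) of the 38 tested histone features (rows, by class) in the 4 irradiated or bystander groups of each line (columns); a black dot marks a feature that passed the test. The 9 rises in H1299shRAD9 DBN lie among H1 and H4 features, and 37 of 38 features have a negative difference in H1299 DBN, where none passed.

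In H1299, the untransfected line, 0 of 38 histone features were differentially expressed in any of the 4 comparisons with CTL. The share of all features called there was 0.0573% for DBP, 0.0164% for DBN and 0% for both bystander groups. At an unadjusted p under 0.05 there were 1 histone feature in DBP (6.26% of all features), 0 in BP (5.83%), 17 in DBN (3.47%) and 0 in BN (2.79%). Of the 38 features, 37 were lower in DBN (DBP and BN had 28 each, and BP 15). Of all 12206 features, 8165 were lower in DBN, 5857 in DBP, 7668 in BN and 7612 in BP. The histone median in DBN was −0.71, where that of all features was −0.10. All 18 H4 features (median −0.75), 4 of 4 H3 (−0.82), 4 of 4 H1 (−0.48), 3 of 3 H2B (−0.16) and 8 of 9 H2A (−0.48) were lower. No single value passed the correction, and the smallest adjusted p was 0.802. With other scalings, background correction or the authors' processed values the median was −0.57 to −0.50, but it was −0.36 without replicate 2 and −0.39 with a block for slide (9 of 38 higher). The 17 features at an unadjusted p under 0.05 became 2 of 43 with the 75th percentile, 6 of 48 with quantile normalization, 2 of 33 with the authors' values, 5 of 38 without replicate 2 and 2 of 38 with a block for slide; with normexp there were 27 of 54.

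HIST1H1B had the lowest difference in H1299 DBN. It was at 4.73, 6.41, 5.16, 5.44 and 6.55 in H1299 CTL and at 4.28, 2.97, 5.02, 5.19 and 5.61 in DBN, lower in 5 of 5 pairs, with the groups overlapping and replicate 2 of DBN far below the rest. The difference was −1.04 (SE 0.41, adjusted p = 1.00).

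HIST1H4J was at 5.00, 6.50, 5.48, 5.43 and 7.12 in CTL and at 4.29, 4.89, 4.80, 4.99 and 5.92 in DBN, also lower in 5 of 5 pairs, with a difference of −0.93 (SE 0.25, unadjusted p = 0.00296, adjusted p = 0.802). HIST1H4I had −0.93 (SE 0.37). At the other end were HIST1H2APS1 at 0.20 (SE 0.25), HIST1H2AC (A_23_P372860) at −0.04 (SE 0.28) and HIST1H1C at −0.09 (SE 0.23), with −0.25 and −0.68 at the other HIST1H2AC features. The 34 histone features that varied less had a median of −0.23, with 1 of 34 higher.

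The lower values in H1299 DBN were unequal between arrays. The mean of the 38 features was 3.74, 3.40, 4.26, 4.51 and 4.42 in DBN and 4.15, 5.05, 4.34, 4.61 and 5.23 in the CTL arrays of the same numbers, so that pairs 3 and 4 differed by little and pair 2 by the most. DBN replicates 1 and 2 were the arrays with the highest share of features above background and the most saturated features. With pairs 3, 4 and 5 alone, 38 of 38 features were lower, the median was −0.29 (all features −0.03) and 0 passed the test, with 8 at an unadjusted p under 0.05. On the 3 slides that held both groups, the mean of the features differed by −0.10, −0.75 and −0.08. The 19 tested S phase genes were lower as well, 19 of 19 with a median of −0.34 and 0 called; their mean level was 4.06, 4.86, 4.79, 5.21 and 5.52 in DBN and 4.91 to 5.32 in CTL. The part of these arrays and of the S phase genes in the histone values was not tested.

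In the other H1299 groups the medians were nearer to 0, except with normexp, where that of BN was −0.91 (all features −0.71), that of DBP −0.43 (all features −0.25) and that of DBN −0.51. In DBP the median was −0.12 (0.04 without replicate 2), with HIST1H2BF (−0.61, SE 0.23, adjusted p = 0.747), HIST1H2AL (−0.43, SE 0.22) and HIST2H3A (−0.38, SE 0.27) lowest and HIST1H2AC (A_23_P372860) highest (0.30, SE 0.19), followed by HIST1H4G (0.13, SE 0.19) and HIST1H2APS1 (0.12, SE 0.21). In BP the median was 0.04 and that of all features −0.07, with −0.17 to 0.24 over the alternatives, with HIST1H4A (A_23_P431179) at −0.51 (SE 0.26), HIST1H2BF at −0.46 (SE 0.34) and HIST2H3A at −0.33 (SE 0.36) lowest, and HIST1H4G (0.37, SE 0.39), HIST1H4B (0.32, SE 0.23) and HIST1H4L (A_33_P3351851, 0.27, SE 0.21) highest. In BN the median was −0.07 (0.01 without replicate 5 and 0.06 with a block for slide), and values ran from −0.32 (SE 0.15) in HIST2H2AC, −0.25 (SE 0.20) in HIST1H4J and −0.24 (SE 0.12) in HIST1H4A (A_23_P431179) to 0.05 (SE 0.18) in the other HIST1H4A feature, 0.06 (SE 0.20) in HIST2H2AA4 and 0.08 (SE 0.20) in HIST1H3B.

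**Figure D4:**
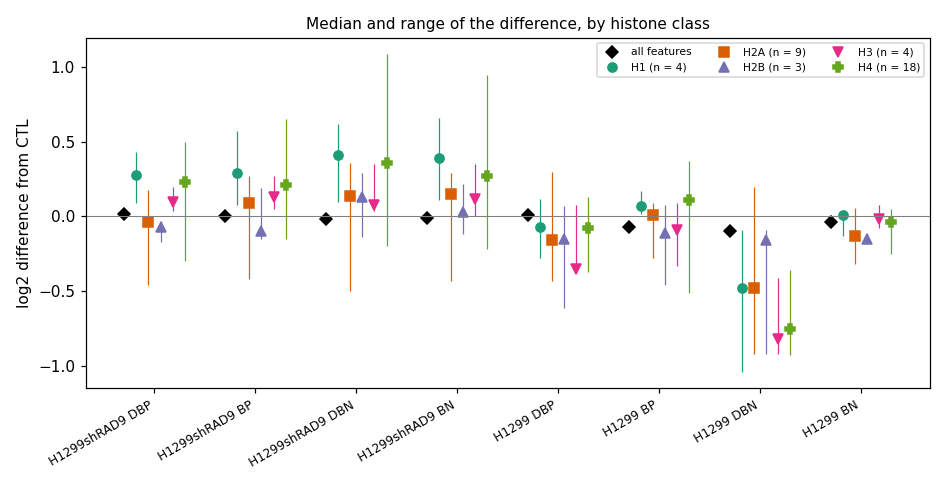
Median difference from CTL on the log2 scale (vertical axes) of the tested H1, H2A, H2B, H3 and H4 features in each irradiated or bystander group of H1299shRAD9 and of H1299; vertical lines span the lowest to the highest feature of a class and black diamonds are the median of all 12206 features. In DBN the class medians were 0.08 to 0.41 in H1299shRAD9 and −0.82 to −0.16 in H1299.

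Whether the lines differed in their change was tested as an interaction of line and exposure (the change in H1299shRAD9 minus the change in H1299). None of the 38 histone features passed in any of the 4 exposures, and no other feature did either (0% of all features in each). In DBN 24 of 38 had an unadjusted p under 0.05, where 9.07% of all features did. The histone median was 0.95 (all features 0.09), and 35 of 38 were above 0, beside 62.2% of all features. The smallest adjusted p was 0.105, in HIST1H4K (A_23_P30813, 1.96) and HIST1H4J (1.83). The median was 0.56 without replicate 2 and 0.46 with H1299 pairs 3, 4 and 5 alone, and the 24 features became 11 of 43 with the 75th percentile, 13 of 48 with quantile normalization, 12 of 33 with the authors' values, 34 of 54 with normexp, 17 without replicate 1 and 14 without replicate 2 or with those pairs alone. In DBP, BP and BN 6, 1 and 6 features had an unadjusted p under 0.05, beside 8.64%, 6.99% and 7.78% of all features. The count in DBN depended on single arrays and on the features tested: with H1299 pairs 3, 4 and 5 alone 6 histone features passed (HIST1H2AL, HIST2H2AC, HIST1H4F, HIST1H4J and both features of HIST1H4K, among 257 features of all), and without the criterion on variation 2 passed (HIST1H4J and HIST1H4K, adjusted p = 0.0883), of 3 features in all or 0.0149% of 20100.

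The features of a class did not vary alike over the arrays. After the mean of each group was removed, the median correlation over 50 arrays, which share slides and dishes, was 0.76 between H4 features, 0.69 between H1 features and 0.64 between H1 and H4 features. It was 0.53 between H3 features, 0.15 between H2A features and 0.08 between H2B features. These values are a description, and H4 probes that overlap share part of it by construction. Features of the same gene also differed: the correlation was 0.85 for HIST1H4K and 0.87 for HIST1H4D, but 0.65, −0.29 and 0.08 for the 3 pairs of HIST1H2AC features, where A_23_P167983 lies 14419 bases from A_23_P372860 and 14361 from A_33_P3344127.

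The genes that rose were also compared in the 250 bases before their start (RefSeq, GRCh38.p14). All 69 gene names matched a current symbol, 67 by accession and 2 by symbol or older symbol, and 62 had a promoter. Motifs were searched on both strands: the TATA box TATAAA, the CCAAT box CCAAT, the H1 box AAACACA and the octamer ATTTGCAT. Below, the linker histones HIST1H1B (now H1-5, chr6:27867589-27867838, minus strand) and HIST1H1E (H1-4, chr6:26156079-26156328, plus strand), which rose in DBP and DBN, and HIST1H4K (H4C12, chr6:27831561-27831810, minus strand), which had the highest rise in DBN, are shown with TATA, CCAAT and H1 boxes in capitals.
HIST1H1B: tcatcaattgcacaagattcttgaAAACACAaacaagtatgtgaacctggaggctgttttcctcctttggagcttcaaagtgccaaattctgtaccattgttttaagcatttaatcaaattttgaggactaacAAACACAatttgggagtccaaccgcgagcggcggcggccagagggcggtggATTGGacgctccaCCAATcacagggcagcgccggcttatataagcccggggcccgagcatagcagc
HIST1H1E: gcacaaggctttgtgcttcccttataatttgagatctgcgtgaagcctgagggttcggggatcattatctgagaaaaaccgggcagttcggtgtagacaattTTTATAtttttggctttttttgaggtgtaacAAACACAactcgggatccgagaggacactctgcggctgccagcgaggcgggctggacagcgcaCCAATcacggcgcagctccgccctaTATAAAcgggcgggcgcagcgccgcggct
HIST1H4K: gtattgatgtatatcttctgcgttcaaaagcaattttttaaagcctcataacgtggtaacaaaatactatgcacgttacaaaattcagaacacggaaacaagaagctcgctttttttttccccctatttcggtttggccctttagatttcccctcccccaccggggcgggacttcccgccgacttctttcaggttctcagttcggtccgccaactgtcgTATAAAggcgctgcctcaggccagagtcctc

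Both H1 promoters held the H1 box 117 bases before the start and a CCAAT box 53 or 54 bases before it, though only 35.6% of their 250 bases were equal. HIST1H4K held a TATA box 31 bases before the start and none of the other 3 motifs. The promoter of HIST1H4J equalled that of HIST1H4K in 245 of 250 bases (98.0%) with the TATA box at the same place. The other H4 genes that rose in DBN were not alike in this. HIST1H4G held the TATA box alone, HIST1H4F and HIST1H4I held the CCAAT box alone, and HIST2H4B held none of these motifs. Over the histone promoters, the H1 box was in 6 of 6 H1 genes and 0 of the others (4.95% of all 27305 promoters). The CCAAT box was in 6 of 6 H1, 14 of 14 H2A, 18 of 18 H2B, 11 of 11 H3 and 3 of 13 H4 genes (33.0% of all). The TATA box was in 40 of 62 (11.1% of all), and the octamer in 10 of 14 H2A and 14 of 18 H2B genes, 1 of 11 H3 gene and no H1 or H4 gene (1.66% of all). In 12 pairs the windows of neighbouring genes overlapped, 10 of them H2A with H2B, so these genes share bases. A match in these letters is no evidence of binding.

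Other genes of histone biology were described from 4 lists, by 1 feature per gene. Of 20 non-clustered histone variants 9 were tested. H1FX, a linker histone variant, was down regulated in unirradiated H1299shRAD9 (−0.68, SE 0.14, adjusted p = 0.009). CENPA, the H3 variant of centromeres, fell in H1299shRAD9 DBP (−0.87, adjusted p = 0.0528) and DBN (fold change on the log2 scale −1.0, adjusted p = 0.0622) and in H1299 DBP (−1.04, adjusted p = 0.0959). The median of this list was −0.09, 0.00, −0.17 and 0.03 in H1299shRAD9 DBP, BP, DBN and BN.

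Of 31 histone chaperones 19 were tested. HJURP, the chaperone that deposits CENPA, was down regulated in H1299shRAD9 DBP (−0.85, adjusted p = 0.0519) and DBN (−0.84, adjusted p = 0.0253). In H1299 0 of the 19 were called, and the lowest differences were −0.89 in DBP and −0.87 in DBN. No interaction of this list was below −0.25 in DBP or −0.17 in DBN, so HJURP was lower in H1299 as well. NAP1L1, a nucleosome assembly protein, was up regulated in unirradiated H1299shRAD9 (0.45, adjusted p = 0.0286). Against bystander cells HJURP was lower in DBP (−0.79, adjusted p = 0.0693) and DBN (−0.80, adjusted p = 0.0934), and CENPA in DBN (−1.11, adjusted p = 0.0615). Of 34 factors of histone transcription and mRNA processing 15 were tested. LSM11, of the U7 particle that cuts the histone message, rose in H1299shRAD9 BP (0.52, adjusted p = 0.0679), and SSB, the La protein, rose in DBN (0.64, adjusted p = 0.0732). The median of this list in H1299shRAD9 was −0.02 in DBP and −0.01 in BP and DBN.

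Of 44 S phase genes 19 were tested. TIPIN (0.73, adjusted p = 0.009) and UHRF1 (0.68, adjusted p = 0.0103), both of replication, were up regulated in unirradiated H1299shRAD9, where the list's median was 0.20. CLSPN, an adaptor of the replication checkpoint, rose in H1299shRAD9 BP (0.55, adjusted p = 0.0489) and DBN (0.69, adjusted p = 0.0613). In H1299shRAD9 DBN, where 9 histone features rose, 10 of 19 S phase genes were higher and the list's median was 0.01.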

How the data were processed

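RNA of 50 samples was labeled with Cy3 and hybridized to 1-colour Agilent 4x44K v2 arrays (44495 spots, 13 slides). The labeling kit primes from oligo-dT, while most histone messages lack a poly(A) tail, and how much of each message was primed was not measured. Per the file headers, the deposited intensities had a fitted spatial background subtracted and a trend over the array corrected by Feature Extraction. The authors' own processed values, deposited as log2 intensities after median normalization, were an alternative.

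Processed intensities were log2 transformed here, outlier spots were left out, spots of a probe were averaged and the array median was subtracted. Features flagged or not well above background on 25% or more of the arrays were removed (20100 left), as were those not 1.3-fold from their median on 20% of the arrays (12206 left). Groups were compared with limma 3.58.1 (lmFit, eBayes) in R 4.3.3, adjusted by Benjamini-Hochberg over all tested features. Comparisons with CTL and of irradiated with bystander cells had the replicate number as a block, since the methods name paired samples and the labels number them. After removing group means, the correlation of same-numbered arrays averaged 0.487 to 0.532 in the H1299shRAD9 comparisons with CTL (lowest pair 0.206) and 0.139 to 0.414 in H1299 (lowest pair −0.208). The lines, and DBN with DBP, were compared without pairing, and interactions with line and replicate together as a block. For DBN with DBP the correlation of same-numbered arrays averaged 0.404 (lowest pair 0.266). Exact permutation tests were 2-sided. The number of arrays limits the precision.

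Features named with values are histone features called in any comparison, the feature with the highest mean level of each class, the 3 largest rises and falls in each comparison with CTL or between CTL groups, and genes of 4 pathway lists called in a comparison with CTL, between CTL groups or of irradiated with bystander cells. HIST1H4F, HIST1H4H and other features named for their probes, for the interaction or for the other features of a gene were added by their sequence or values. The members and lists were chosen with earlier results of these data known. The code was tested on simulated data. Alternatives covered scaling, background correction, filters, the authors' values, slide, pairing, all groups in one fit and each replicate left out. Sequences came from the probes of the array files and from RefSeq tables. Python 3.11.15 and pandas 2.3.3 were used.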

Additional observations from a re-analysis of the deposited data

Results flagged for a closer look

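Within the H1299shRAD9 BP group, replicate 5 stood apart in 2 H4 features whose probes share the window shown in the report. HIST1H4I was at 5.38 on this array and at 4.68 to 4.74 on the other 4 (gap over range 0.914), and HIST2H4B was at 5.74 against 5.03 to 5.10 (0.901). These were 2 of 120 groups of 5 examined, and chance marks about 1 in 20 groups.

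In DBN, 7 histone features moved up in all 5 pairs of H1299shRAD9 and down in all 5 pairs of H1299, among 44 combinations of feature and exposure examined. Only histone features called in a comparison were examined. All 7 had been called as higher in H1299shRAD9 DBN, so their rise there was part of the choice. Of all features, 9.11% were higher in all 5 pairs of H1299shRAD9 DBN and 5.18% lower in all 5 pairs of H1299 DBN. The share with both was not counted. The difference between the lines was tested as an interaction and passed in none of the 7. For HIST1H4K (A_23_P30813) the interaction was 1.96 (change of 1.09 in H1299shRAD9 and −0.87 in H1299, adjusted p = 0.105), and for HIST1H4J 1.83 (0.90 and −0.93, adjusted p = 0.105). HIST1H1B had 1.66 (0.62 and −1.04, adjusted p = 0.221), and HIST1H4F 1.60 (0.71 and −0.88, adjusted p = 0.139). HIST1H4I had 1.45 (0.52 and −0.93, adjusted p = 0.218), HIST2H4B 1.42 (0.52 and −0.90, adjusted p = 0.164) and the other HIST1H4K feature, A_33_P3299865, 1.38 (0.50 and −0.88, adjusted p = 0.156). The probes of 4 of these features share a window, and those of HIST1H4J and HIST1H4K overlap, so the 7 are not independent.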

How the results depend on the processing

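In the comparisons with histone features called, the number called stayed within 1.5 times its main value in 20 of 56 alternatives. The others had 0 called, and staying at 0 says nothing of their stability. In H1299shRAD9 DBN (10 features) it was 5 with scaling to the 75th percentile, 3 with the authors' processed values, 5 with features above background on 4 of 5 arrays of a group compared, 0 with slide as a block, and 0 to 11 with a replicate left out (0 without replicate 2, 3 or 4, 4 without replicate 1). Between the CTL groups (2) it was 1 with the 75th percentile, 4 with quantile normalization, 5 with normexp (all lower in H1299shRAD9, with HIST1H4K and HIST1H1B among them), 1 with the authors' values, 1 with slide as a block, 1 with all groups in one fit, and 1 to 3 with a replicate left out (1 without replicate 2 or 3). In DBP (2) it was 0 with slide as a block, 1 with all groups in one fit, and 0 to 3 with a replicate left out. In BP (1) it was 0 with the 75th percentile, quantile normalization, the authors' values, the criterion of 4 of 5 arrays or slide as a block, 3 with normexp, and 0 to 3 with a replicate left out. In BN (0) it was 2 with all groups in one fit, beside 555 of all 12206 features. The pairing decided the calls in H1299shRAD9: without the replicate block, DBN, DBP and BP had 0 histone features each. Over all 12206 features these fits had 108, 14 and 0 called, where 583, 217 and 285 were called with the block. Adding the block between the CTL groups gave 1 higher (HIST1H2APS1) and 1 lower (HIST1H4K, −1.24), with HIST4H4 no longer called (adjusted p 0.0594), beside 1301 of all features. The DBN interaction (0) had 2 with normexp, 2 without the criterion on variation, 0 to 4 with a replicate left out (4 without replicate 1) and 6 with H1299 pairs 3, 4 and 5 alone, an alternative chosen after seeing the data. Of 262 alternatives for single features, 141 kept their direction and side of the threshold and 117 their direction but not the threshold. Among these values only the line difference of HIST1H2APS1 changed sign, in DBN (0.04) with the 75th percentile (−0.10) and without replicate 3 (−0.03) or 5 (−0.09; −0.09 to 0.16 over all replicates left out), and in BN with normexp (−0.08). The median of all features moved by over 0.1 between the CTL groups, in the H1299 comparisons with CTL and in the interactions, up to −0.67 in H1299 BN with normexp; in H1299 DBN it moved by 0.15 with the 75th percentile, where the histone median was −0.54. The cause of these changes was not tested. An interaction with all groups in one fit was not run. Signal near background limits HIST1H4G, HIST4H4 and HIST1H2APS1.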
